A study of Homo sapiens with 4 samples.

Results

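The genes described here make up the carriers that move proteins between the endoplasmic reticulum (ER) and the Golgi. They were chosen by name: 45 genes of the COPII coat, cargo receptors, SNAREs and tethers, and the COPI coat. The choice was made with earlier results of these data known. Of these, 42 had a probe set that names only that gene, out of 19775 genes with such a probe set on the array. KDELR2, TMED7 and USO1 had none and were not analysed here. All 42 lay above the brightness minimum, an intensity of 14.7, and were tested among 12951 genes.

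The cells were MCF10A, immortalised, non-tumorigenic epithelial cells of the human breast. In the group labelled double knockdown (n = 2 arrays), the cells expressed short hairpin RNAs against CBL and CBLB, ubiquitin ligases known for sending activated receptor tyrosine kinases to the lysosome. In the control group (n = 2 arrays) they expressed a control hairpin. Cells of both groups were grown in DFCI-1 medium and harvested with no further treatment, and total RNA was labelled with biotin and hybridised to Affymetrix arrays. The labels do not say whether the hairpin cells were clones or pools, or whether replicate arrays stand for separate cultures. The p-values therefore cover only the spread between replicate arrays, possibly a technical one, and fewer cells of a kind cannot be told apart from less RNA per cell.

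The targeted transcripts were read first. CBL had intensities of 31.1 and 29.0 on the arrays labelled double knockdown, against 125.9 and 84.4 on the control arrays, and was lower (log2 change -1.37 ± 0.15 SE, adjusted p = 0.00139 by limma). Averaged over all its probe sets, the log2 change of CBL was -0.41. CBLB had 94.8 and 99.5 on the arrays labelled double knockdown, against 64.3 and 70.0 on the control arrays, and was higher (log2 change 0.45, adjusted p = 0.0148), a call that was lost without double knockdown replicate 1 (0.0861) or 2 (0.132). CBLB thus went against its label, and every direction below is that of the arrays labelled double knockdown against the control arrays. Of 10 markers of mammary epithelial and basal cells, 8 were above the brightness minimum, with a summed intensity of 22590 to 23610 on the arrays labelled double knockdown and 30560 to 31760 on the control arrays. In this list KRT5 and KRT14 were lower and KRT8, KRT18, EPCAM and LAMB3 higher. KRT14 had the largest fall, with 4710 and 4266 on the arrays labelled double knockdown, against 13558 and 14078 on the control arrays. A sum is weighted to such bright probe sets, so it does not give a shared change of the list. Of other cell types, 1 of 5 leukocyte, 1 of 3 endothelial and 3 of 4 fibroblast markers were above the minimum. Leukocyte markers summed to 28.4 and 29.0 on the arrays labelled double knockdown and to 27.3 and 31.1 on the control arrays, with PTPRC and LYZ between 4.39 and 7.01, near the lowest values of the arrays. Endothelial markers summed to 44.8 and 47.4 on the arrays labelled double knockdown and to 52.5 and 51.4 on the control arrays. Fibroblast markers summed to 225.4 and 224.4 on the arrays labelled double knockdown and to 296.8 and 302.3 on the control arrays. The part of these markers in the results below was not tested.

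As background, secretory cargo leaves the ER in vesicles made by the COPII coat. The GTPase SAR1 enters the ER membrane and recruits an inner layer of SEC23 and SEC24, which binds cargo, and then an outer cage of SEC13 and SEC31. Cargo receptors link soluble cargo in the ER lumen to these coats. COPI vesicles, built from coatomer on membranes that carry the GTPase ARF1, return receptors and escaped ER proteins from the Golgi to the ER. SNAREs and tethers let each vesicle dock and fuse with the right membrane.

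Genes of the carriers were more often higher than lower. Of the 42 genes, 10 were higher and 4 lower at an adjusted p under 0.05, where 9.41% and 6.60% of all genes tested were called in these directions. Their median log2 change was 0.18, against -0.01 over all genes tested, and 28 of 42 changes were above 0. The higher genes were SEC24D, SEC24A, SEC23B and MIA3 of the COPII group, the cargo receptors LMAN1, TMED9, KDELR3 and SURF4, the SNARE BET1, and ARF1. The lower genes were ERGIC1, ERGIC2 and ERGIC3, membrane proteins that cycle between ER and Golgi, and the SNARE YKT6. The arrays of the groups did not overlap for 31 genes, 25 of them higher and 6 lower, and the same held for 57.5% of all genes tested (28.1% higher and 29.3% lower).

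**Figure D1:**
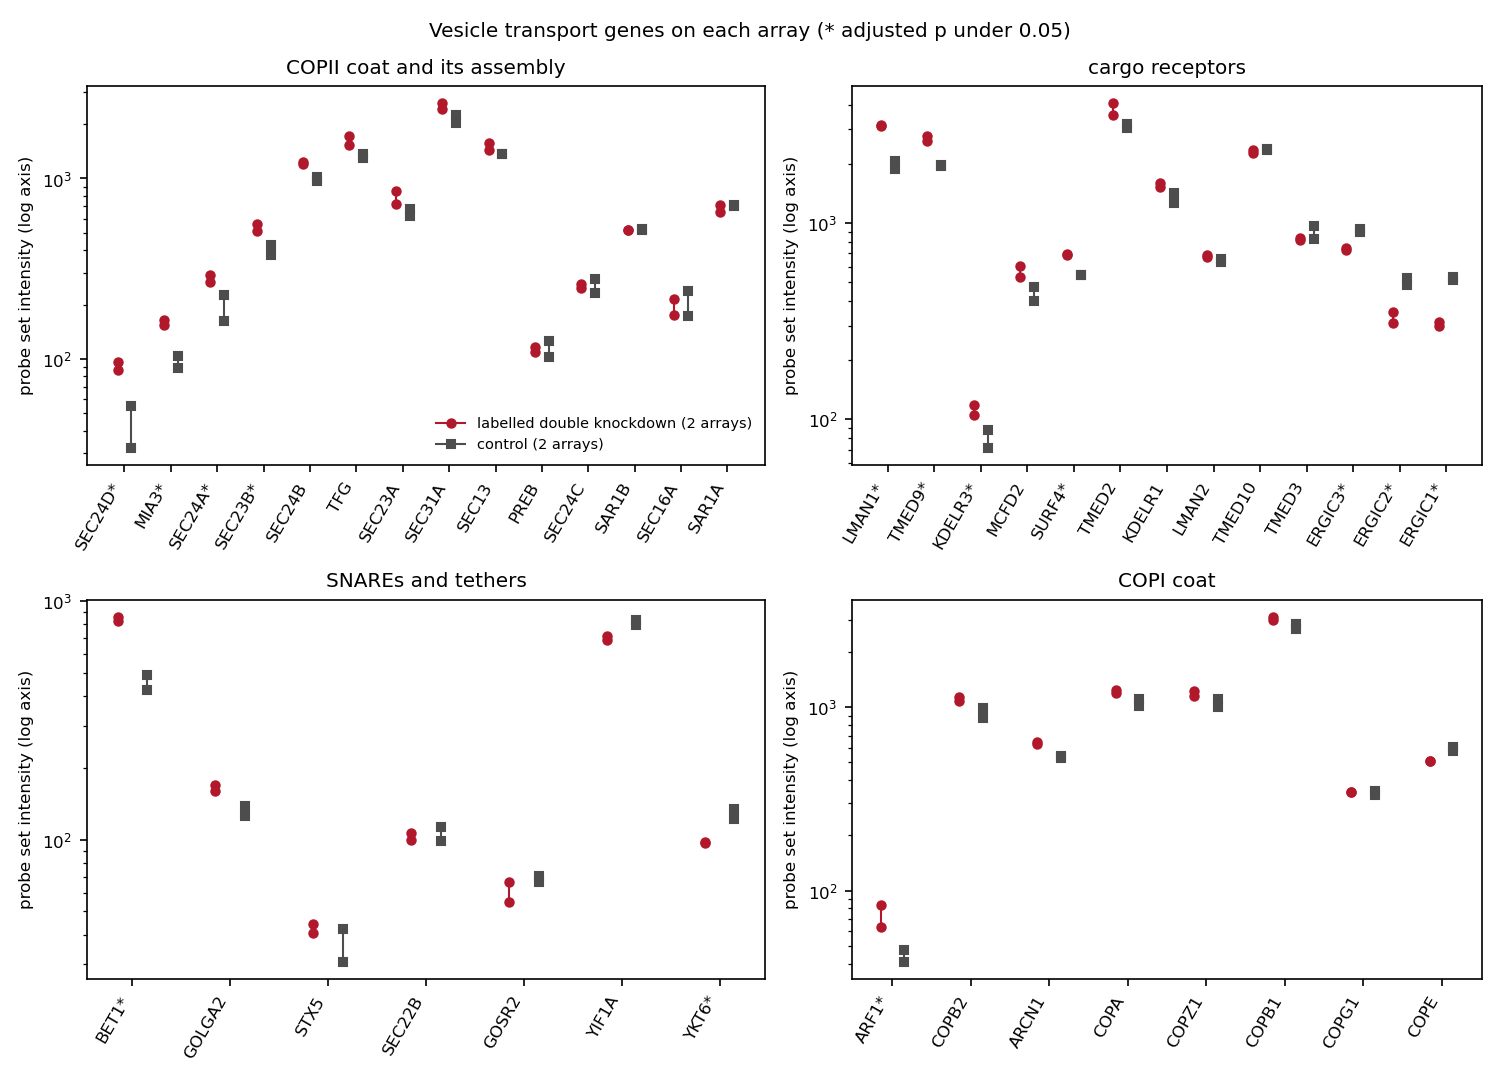
Intensity of each of the 42 tested genes on each array (log axis), with the 2 arrays labelled double knockdown left of the 2 control arrays and genes ordered by change within each role. LMAN1, BET1, ERGIC1 and ERGIC2 show well separated pairs, while SAR1B, TMED10 and COPG1 overlap. Levels of different genes come from different probe sets and cannot be compared.

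The number of calls depended on which array was left out. Without double knockdown replicate 1, 4 members were called higher and 1 lower. The counts were 2 and 2 without double knockdown replicate 2, 7 and 2 without control replicate 1, and 8 and 3 without control replicate 2. Over all genes, 489 were called higher and 193 lower without double knockdown replicate 1, and 378 and 158 without double knockdown replicate 2. They were 974 and 637 without control replicate 1 and 1120 and 875 without control replicate 2, against 1219 and 855 with all arrays. LMAN1, BET1 and ERGIC1 kept their calls whichever array was left out.

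Promoter sequences were available for 39 of the 42 tested genes. They were searched because several genes of these carriers are known targets of the transcription factors ATF6 and XBP1, which act when unfolded proteins build up in the ER and bind DNA with an ACGT core. The window was the 250 bases before a RefSeq start of each gene (GRCh38.p14), read on both strands. In SEC24A, SURF4, MIA3, MCFD2 and KDELR1 that start lay inside the gene's RefSeq bounds. Bases before the outermost start of these genes were not searched. GCCACGT was present in 12 of 39 members (30.8%), against 3.89% of the 10436 promoters of genes tested and 2.85% of all 27305 promoters. TGACGTGG was present in 6 of 39 (15.4%), against 0.728% of promoters of genes tested and 0.667% of all promoters. The motifs overlapped in SEC24A, KDELR3, STX5 and ARF1, and 13 members held at least 1 of them. A match is a run of letters and does not show that a factor binds.

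Both motifs occurred among members called higher and among members not called. At least 1 of them was found in 4 of 8 promoters of members called higher, in 9 of 28 of those not called and in none of the 3 of those called lower. The 13 members with a motif had a median log2 change of 0.25, with 11 above 0, and the 26 without had a median of 0.10, with 15 above 0. Over all genes tested, 17.2% of the 442 genes with either motif were called higher and 3.39% lower, against 9.53% and 6.89% of all 10436 genes with a promoter sequence. These shares are descriptions, and the difference was not tested. Neither motif was found for LMAN1, BET1, MIA3 and SEC23B, which were also called higher. With all arrays in use, LMAN1, BET1 and MIA3 kept their calls under every alternative processing described below. SEC23B, SEC24A, KDELR3, SURF4 and ARF1 each lost theirs under some. The following promoters are shown because they hold the motifs: SEC24A, KDELR3, SURF4 and ARF1 were called higher, while COPB2 and STX5 were not called. Each line gives the RefSeq sequence 5′ to 3′ on the gene's strand, ending at the base before the start, with every GCCACGT and TGACGTGG of either strand in capitals, so that ACGTGGC and CCACGTCA are their reverse complements.
SEC24A (chr5:134648535-134648784, plus strand): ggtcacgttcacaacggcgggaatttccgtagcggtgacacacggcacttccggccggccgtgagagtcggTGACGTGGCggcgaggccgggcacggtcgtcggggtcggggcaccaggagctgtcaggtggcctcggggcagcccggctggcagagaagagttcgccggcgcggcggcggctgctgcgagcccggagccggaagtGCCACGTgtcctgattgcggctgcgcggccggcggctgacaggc
KDELR3 (chr22:38467846-38468095, plus strand): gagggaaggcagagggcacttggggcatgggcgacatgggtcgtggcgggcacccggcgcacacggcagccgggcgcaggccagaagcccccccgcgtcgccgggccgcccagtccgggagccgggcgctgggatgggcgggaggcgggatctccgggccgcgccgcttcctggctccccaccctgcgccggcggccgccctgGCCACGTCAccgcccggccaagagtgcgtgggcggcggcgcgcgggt
SURF4 (chr9:133376061-133376310, minus strand): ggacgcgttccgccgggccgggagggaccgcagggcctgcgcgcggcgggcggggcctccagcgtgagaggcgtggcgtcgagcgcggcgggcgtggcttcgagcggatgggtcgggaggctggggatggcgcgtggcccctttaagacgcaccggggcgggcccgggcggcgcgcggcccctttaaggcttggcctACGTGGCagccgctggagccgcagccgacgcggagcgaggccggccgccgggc
ARF1 (chr1:228082458-228082707, plus strand): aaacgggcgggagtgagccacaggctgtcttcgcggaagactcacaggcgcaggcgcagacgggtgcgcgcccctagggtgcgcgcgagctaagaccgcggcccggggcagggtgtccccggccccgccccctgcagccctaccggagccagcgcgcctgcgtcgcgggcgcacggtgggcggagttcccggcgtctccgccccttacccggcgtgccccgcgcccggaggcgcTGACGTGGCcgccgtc
COPB2 (chr3:139389681-139389930, minus strand): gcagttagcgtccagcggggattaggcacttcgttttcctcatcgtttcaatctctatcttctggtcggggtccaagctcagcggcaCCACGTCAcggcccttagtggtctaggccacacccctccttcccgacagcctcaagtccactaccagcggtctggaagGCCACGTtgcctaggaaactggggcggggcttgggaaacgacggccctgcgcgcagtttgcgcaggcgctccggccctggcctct
STX5 (chr11:62832052-62832301, minus strand): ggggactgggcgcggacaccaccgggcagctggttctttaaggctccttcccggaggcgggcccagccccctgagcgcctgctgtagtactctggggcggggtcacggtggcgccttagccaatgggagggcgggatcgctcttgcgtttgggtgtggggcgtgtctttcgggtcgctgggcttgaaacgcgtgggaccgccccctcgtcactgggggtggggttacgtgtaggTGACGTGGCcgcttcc

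The matches lay at different distances from the start used, which in SEC24A and SURF4 lay inside the gene's bounds. In SEC24A the overlapping motifs began at position -179 relative to the start and a further GCCACGT at -44. The match began at -47 in KDELR3 and at -53 in SURF4, while in both ARF1 and STX5 the overlapping motifs began at -16. COPB2 held its motifs apart, TGACGTGG at -163 and GCCACGT at -85. The other members with a match were SAR1A, SEC31A, SEC24C, TMED2, COPB1, COPG1 and ARCN1, none of which was called. The longer ER stress elements ERSE and ERSE-II and the cyclic AMP element TGACGTCA were in none of the 39 windows, and in 0.134%, 0.125% and 2.82% of the promoters of genes tested. The short parts CCAAT and CCACG, which the longer elements contain, were in 16 (41.0%) and 26 (66.7%) of the 39. In the promoters of genes tested the shares were 34.6% and 43.5%. GCCACGT and TGACGTGG themselves hold CCACG or its reverse complement. The 13 members with either motif are therefore among these 26, and the share for CCACG is not a separate result.

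In the COPII group, 4 of 14 genes were higher and none lower by limma, with a median log2 change of 0.25. That is 28.6% called, beside 16% of all genes tested. The 4 genes of the group with a change below 0 reached no further than -0.06, and 0 of them had an unadjusted p under 0.05. SEC24D, a cargo-binding paralog of the inner coat, had intensities of 95.8 and 86.5 on the arrays labelled double knockdown, against 55.0 and 32.1 on the control arrays. Both control arrays lay below both others, although they differed widely. It was higher 1.83-fold (log2 change 0.87 ± 0.17 SE, adjusted p = 0.0135), and 2.09-fold without the added constant. SEC24A, its paralog with the motifs shown above, had 292.6 and 267.1, against 225.5 and 163.3 in the control, again without overlap and with the wider spread in the control (log2 change 0.51 ± 0.14 SE, adjusted p = 0.0475).

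The remaining SEC24 paralogs were not called. SEC24B had 1235 and 1207 on the arrays labelled double knockdown, against 973 and 1015 on the control arrays, and just missed the threshold (log2 change 0.29 ± 0.08 SE, adjusted p = 0.0537). SEC24C had 247.9 and 260.5, against 277.7 and 232.7 in the control, so its arrays overlapped (log2 change 0.00 ± 0.10 SE). Whether the paralogs differ from each other in their change was not tested.

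SEC23B, an inner coat protein that stimulates GTP hydrolysis by SAR1, had 512.0 and 562.0 on the arrays labelled double knockdown, against 374.9 and 425.3 on the control arrays (log2 change 0.41 ± 0.10 SE, adjusted p = 0.0301). Its paralog SEC23A had 855.5 and 723.9, against 679.1 and 622.4 in the control, also without overlap but not called (log2 change 0.27 ± 0.11 SE, adjusted p = 0.133). The SAR1 paralogs stayed close to 0. SAR1A had 652.7 and 710.4, against 704.7 and 717.3 in the control (log2 change -0.06 ± 0.09 SE). SAR1B had 516.5 and 517.6, against 516.0 and 521.8 in the control, and both values lay between those of the control.

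MIA3, also called TANGO1, loads bulky cargo such as procollagen into COPII carriers. It had 153.7 and 164.8 on the arrays labelled double knockdown, against 88.9 and 103.2 on the control arrays, and was higher 1.57-fold (log2 change 0.65 ± 0.10 SE, adjusted p = 0.00559). The other genes of the group were not called. The exit-site organiser TFG (log2 change 0.29, adjusted p = 0.0745) and the outer cage genes SEC31A (0.23) and SEC13 (0.13) lay above 0 without overlap. PREB, the exchange factor that switches SAR1 on, and SEC16A, a scaffold of ER exit sites, had log2 changes of 0.00 and -0.05.

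Each COPII call depended on the arrays used. Without double knockdown replicate 2, MIA3 had adjusted p = 0.0572, SEC24D 0.0522, SEC24A 0.134 and SEC23B 0.227. Without double knockdown replicate 1, SEC24D had adjusted p = 0.0716, SEC24A 0.221 and SEC23B 0.097. SEC23B also lost its call without control replicate 1 (0.0935) and SEC24A without control replicate 2, where its log2 change was 0.29 (0.107).

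**Figure D2:**
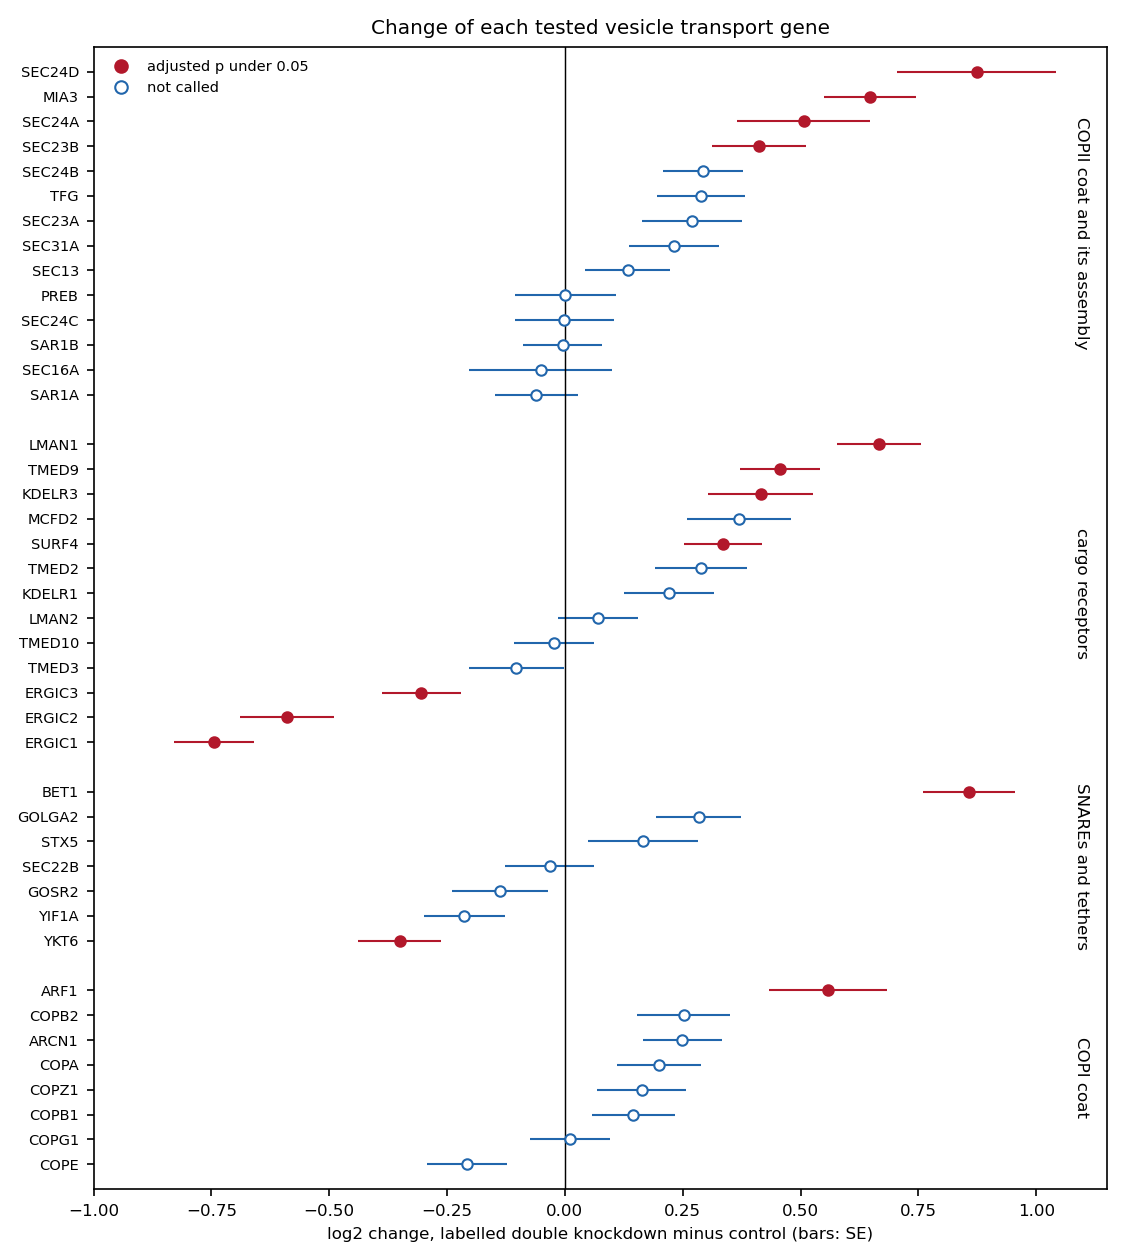
Log2 change of each tested gene, arrays labelled double knockdown minus control arrays, with its moderated standard error and genes grouped by role (n = 2 arrays per group). Filled points passed an adjusted p under 0.05. SEC24D and BET1 lie highest, at 0.87 and 0.86, and ERGIC1 lowest, at -0.74.

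Among cargo receptors, 4 of 13 genes were higher and 3 lower, the most calls of the 4 roles (53.8% called, beside 16% of all genes tested). LMAN1, the lectin ERGIC-53 that carries glycoproteins such as coagulation factors out of the ER, had 3174 and 3110 on the arrays labelled double knockdown, against 2060 and 1889 on the control arrays. The pairs were far apart relative to their spread, and LMAN1 was higher 1.59-fold (log2 change 0.67 ± 0.09 SE, adjusted p = 0.0032). Its soluble partner MCFD2 had a log2 change of 0.37 ± 0.11 SE and was not called (adjusted p = 0.0599). LMAN2, a related lectin, had 689.3 and 671.4, against 635.0 and 659.8 in the control, a small difference that was not called (log2 change 0.07 ± 0.08 SE).

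The ERGIC genes moved the other way. ERGIC1 had 312.5 and 298.2 on the arrays labelled double knockdown, against 513.1 and 531.5 on the control arrays, and fell by 0.74 on the log2 scale (SE 0.09, adjusted p = 0.00163). ERGIC2 had 308.1 and 352.8, against 525.9 and 484.0 in the control, and fell by 0.59 (SE 0.10, adjusted p = 0.00834). ERGIC3 had 728.8 and 746.5, against 931.0 and 898.8 in the control, and fell by 0.30 (SE 0.08, adjusted p = 0.047). For these genes the arrays of each group lay together and apart from the other group. ERGIC2 and ERGIC3 are the human counterparts of Erv41 and Erv46, a yeast complex that cycles between ER and Golgi and returns cargo to the ER.

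Receptors that return escaped proteins to the ER were measured for KDELR1 and KDELR3. KDELR3 had 118.2 and 104.8 on the arrays labelled double knockdown, against 71.4 and 88.4 on the control arrays, and was higher 1.33-fold (log2 change 0.42 ± 0.11 SE, adjusted p = 0.0433). KDELR1 had 1604 and 1534, against 1429 and 1264 in the control, did not overlap and was not called (log2 change 0.22 ± 0.10 SE, adjusted p = 0.166). SURF4, a receptor for soluble secretory cargo, had 691.5 and 687.1, against 543.4 and 542.3 in the control. Its arrays agreed closely within each group, and it was higher 1.26-fold (log2 change 0.34 ± 0.08 SE, adjusted p = 0.0321).

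TMED proteins, the p24 family, are abundant membrane proteins of COPI and COPII vesicles. TMED9 had 2775 and 2626 on the arrays labelled double knockdown, against 1983 and 1944 on the control arrays, and was higher 1.37-fold (log2 change 0.46 ± 0.09 SE, adjusted p = 0.0124). TMED2 had 4078 and 3566, against 3181 and 3061 in the control, without overlap and not called (log2 change 0.29 ± 0.10 SE, adjusted p = 0.0861). TMED10 and TMED3 overlapped between groups. TMED10 had 2366 and 2282, against 2353 and 2371 in the control (log2 change -0.02 ± 0.08 SE), and TMED3 had 840.8 and 823.3, against 828.5 and 966.0 in the control (log2 change -0.10 ± 0.10 SE).

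SURF4 and ERGIC3 lost their calls whichever array was left out, with adjusted p from 0.0606 to 0.2 for SURF4 and from 0.0646 to 0.263 for ERGIC3. Without double knockdown replicate 1, adjusted p was 0.0779 for ERGIC2, 0.253 for KDELR3 and 0.113 for TMED9. Without double knockdown replicate 2 it was 0.12 for KDELR3 and 0.0774 for TMED9, and KDELR3 had 0.136 at a log2 change of 0.29 without control replicate 1.

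Of 7 SNAREs and tethers, 1 was higher and 1 lower (28.6% called, beside 16% of all genes tested), with a median log2 change of -0.03. BET1, a SNARE of ER-to-Golgi vesicles, had 820.2 and 855.4 on the arrays labelled double knockdown, against 424.4 and 487.9 on the control arrays, and was higher 1.81-fold (log2 change 0.86 ± 0.10 SE, adjusted p = 0.00156). YKT6, a SNARE held to membranes by lipid anchors, had 97.3 and 96.6, against 134.2 and 122.2 in the control, and fell by 0.35 on the log2 scale (SE 0.09, adjusted p = 0.0344). STX5 (log2 change 0.17), GOSR2 (-0.14) and SEC22B (-0.03), further SNAREs of this step, were not called and overlapped between groups. The Golgi matrix protein GOLGA2, or GM130, had a log2 change of 0.28 (adjusted p = 0.0725) and YIF1A, a membrane protein of the YIP family, of -0.21 (adjusted p = 0.137). YKT6 lost its call without double knockdown replicate 1 (0.185), double knockdown replicate 2 (0.209) or control replicate 1 (0.0947).

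In the COPI group, 1 of 8 genes was called (12.5%, beside 16% of all genes tested), with a median log2 change of 0.18. ARF1 had 63.0 and 83.4 on the arrays labelled double knockdown, against 40.9 and 47.7 on the control arrays, and was higher 1.47-fold (log2 change 0.56 ± 0.12 SE, adjusted p = 0.0228). This value came from the only probe set that names ARF1 alone, and 3 others that name it together with a further gene were not used. The call of ARF1 was lost without control replicate 1 (adjusted p = 0.0854) or double knockdown replicate 2 (0.168). None of the 7 coatomer subunits was called by limma, and 3 had an unadjusted p under 0.05, as did 30.6% of all genes tested. COPB1, the beta subunit, had 3105 and 2992 on the arrays labelled double knockdown, against 2855 and 2657 on the control arrays (log2 change 0.15 ± 0.09 SE, adjusted p = 0.319). Its other probe sets above the minimum had log2 changes of 0.30 (unadjusted p = 0.00257, limma without the brightness filter) and, on a dim one, 0.11.

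The other coatomer subunits had log2 changes from -0.21 to 0.25. COPB2, the beta prime subunit, had 1078 and 1142 on the arrays labelled double knockdown, against 868.0 and 994.2 on the control arrays (log2 change 0.25 ± 0.10 SE, adjusted p = 0.128). ARCN1, the delta subunit, had a log2 change of 0.25 (adjusted p = 0.0863), COPA of 0.20, COPZ1 of 0.16 and COPG1 of 0.01. The second probe set of COPZ1 had the opposite sign, at -0.07. COPE, the epsilon subunit, had -0.21 (adjusted p = 0.143). Apart from COPG1, the arrays of these subunits did not overlap between groups, as held for 57.5% of all genes tested.

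A gene's probe sets read different stretches of its transcripts, and 26 members had more than 1 above the brightness minimum. For 18 of these members, all such probe sets had a log2 change of the same sign. LMAN1 had 0.67, 0.62 and 0.61 on its 3 probe sets. The second probe set of SEC24D had 31.0 and 40.1 on the arrays labelled double knockdown, against 6.40 and 5.79 on the control arrays, both below the minimum, so no size of change is read from it. ERGIC1 fell by 0.28 on each of its other 2 probe sets above the minimum, less than the 0.74 on its brightest.

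Elsewhere probe sets disagreed. ERGIC2 was the only called gene with a probe set of opposite sign above the minimum, a dim one at 0.04 (unadjusted p = 0.624, limma without the brightness filter). TMED10, near 0 on its brightest probe set, had 37.6 and 50.8 on the arrays labelled double knockdown, against 18.8 and 22.2 on the control arrays, on its dimmest (log2 change 0.72, unadjusted p = 0.00368). SEC22B had 45.3 and 46.2, against 22.8 and 21.1 in the control, on its dimmer probe set (log2 change 0.70, unadjusted p = 7.36e-05), where its brightest had 99.4 and 106.4, against 99.0 and 112.4 in the control. A further 2 probe sets name SEC22B together with pseudogene copies and were not used, and its value is uncertain for that reason. GOLGA2 had a probe set at -0.19 (unadjusted p = 0.0167), opposite to its brightest.

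**Figure D3:**
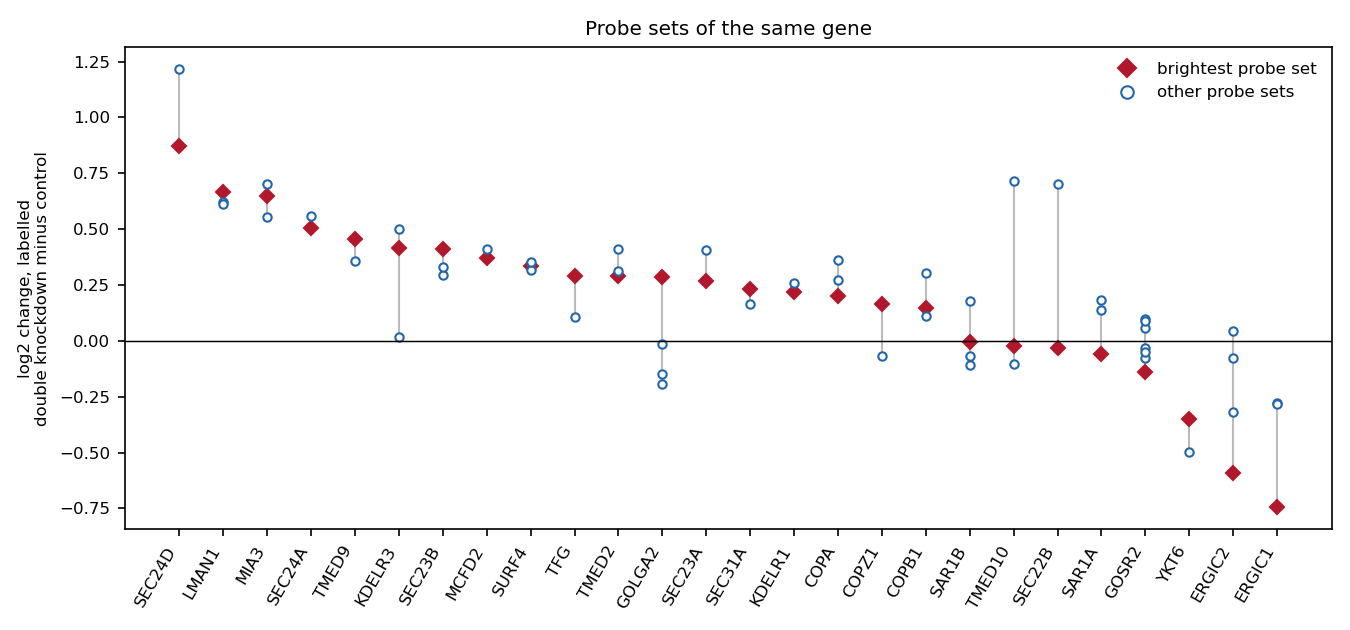
Log2 change of every probe set above the brightness minimum for the 26 members with more than 1 (n = 2 arrays per group). Diamonds mark the brightest probe set, which represents the gene, and circles the others. The probe sets of LMAN1, SURF4 and MIA3 lie close together, while those of TMED10 and SEC22B are spread from near 0 to 0.72 and 0.70. The upper point of SEC24D rests on control intensities below the minimum.

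A wider list of the same pathway held 76 further genes, 73 of them tested. Of these, 7 were higher and 4 lower, beside 9.41% and 6.60% of all genes tested, and the median log2 change was 0.04. TMED5, a p24 protein, had 1474 and 1437 on the arrays labelled double knockdown, against 728.9 and 745.8 on the control arrays, and was higher 1.95-fold (log2 change 0.97 ± 0.08 SE, adjusted p = 0.00045). MIA2, which works with MIA3 at ER exit sites, had 61.4 and 62.2, against 28.2 and 23.7 in the control (log2 change 0.89 ± 0.09 SE, adjusted p = 0.000973). GOLGB1, the Golgi tether giantin, had 193.7 and 243.5, against 102.8 and 124.0 in the control (log2 change 0.85 ± 0.13 SE, adjusted p = 0.0055).

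Membrane proteins of the YIP family went both ways. YIPF6 had 319.8 and 330.9 on the arrays labelled double knockdown, against 211.4 and 235.1 on the control arrays, and was higher (log2 change 0.51 ± 0.09 SE, adjusted p = 0.0101). YIF1B had 217.6 and 193.3, against 309.3 and 317.8 in the control, and fell by 0.58 (SE 0.09, adjusted p = 0.00697). SCFD2, of the family of SNARE regulators that includes SCFD1, had 133.1 and 124.2, against 163.1 and 192.5 in the control, and fell by 0.42 (SE 0.10, adjusted p = 0.0309). Without probe sets of types that can match several transcripts, MIA2 had a log2 change of 0.02 (adjusted p = 0.918) and YIF1B of 0.24 (adjusted p = 0.123). TMED5, MIA2 and GOLGB1 kept their calls whichever array was left out, while YIF1B lost its call without double knockdown replicate 2 (0.0776), YIPF6 without either double knockdown array (up to 0.0931) and SCFD2 without either of these or control replicate 2 (up to 0.208). Of the further genes, 3 were higher and 1 lower without double knockdown replicate 1. With double knockdown replicate 2 left out, 3 were higher and 0 lower by limma, where 4 were lower at an unadjusted p under 0.05. Without control replicate 1 the counts were 7 and 2, and without control replicate 2 they were 6 and 2.

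By role, the further cargo receptors had 4 higher and 1 lower of 17 tested, at a median log2 change of 0.08. Over all genes tested, 9.41% were higher and 6.60% lower. The further SNAREs and tethers had 1 higher and 3 lower of 32, at a median of 0.00. TRAPPC1 (log2 change -0.32) and TRAPPC4 (-0.36), subunits of the TRAPP tethering complex, were the lower tethers beside SCFD2. The COPII regulators had 1 of 14 called and the COPI regulators 1 of 10, namely ARFGAP3, which stimulates GTP hydrolysis by ARF1 (log2 change 0.35). The COPII coat group of the 42 genes thus had a median of 0.25, against -0.04 for the further COPII regulators, which are not coat genes. The cargo receptors of the 42 had 0.22, against 0.08 for the further ones. Members and lists were chosen with earlier results of these data known, so these contrasts can follow from the choice. The differences between these medians were not tested.

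**Figure D4:**
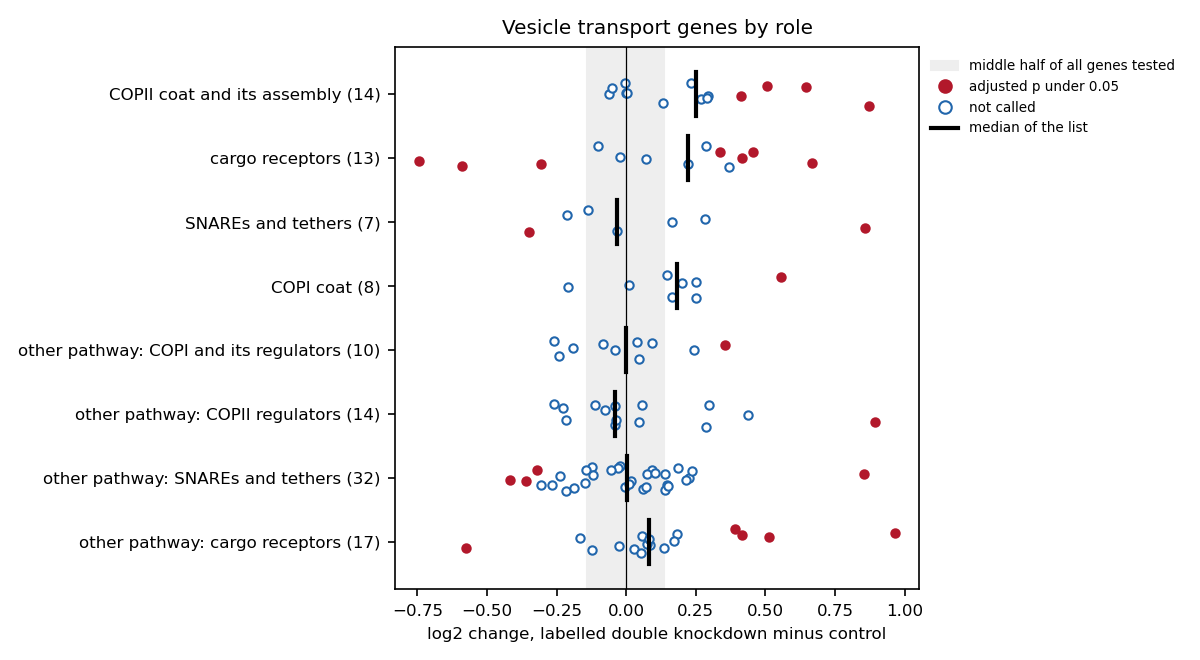
Log2 change of each tested gene by role, with the number of genes tested in brackets. The upper 4 rows are the 42 genes and the lower 4 the further genes of the pathway. The black bar is the median of each row and the grey band runs from the 25th to the 75th percentile of all genes tested, -0.14 to 0.13. The medians of the COPII coat, cargo receptor and COPI coat rows lie right of the band and the other 5 within it.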

How the data were processed

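The deposited table holds 1 intensity per probe set on each array, on a linear scale by its range of values. The authors' summarisation and normalization were not given in the sources used here. Array medians were 14.5 to 14.7, and no further normalization was applied. Of 54675 probe sets, 62 were controls, 41091 named 1 gene, 1801 several and 11721 none. Of those with 1 gene, 41037 matched the RefSeq gene table of GRCh38.p14 by gene identifier, which gave current symbols.

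The probe set of highest mean stood for its gene, and genes were tested from the median of the probe set means, 14.7, upwards. Values were taken as log2(intensity + 16), so folds understate the change of dim genes. The arrays labelled double knockdown were tested against the control arrays with lmFit and eBayes of limma 3.58.1 (R 4.3.3, two-sided, without covariates), with Benjamini-Hochberg adjustment over all genes tested. Every adjusted p is from limma. The test was checked on simulated data, in which 200 of 12951 genes were changed and the noise of each array was drawn independently. Of genes given a log2 change of 0.5, 91% were called, and of those given 1 or 2, 100%. Of the calls in that simulation, 8.92% fell on unchanged genes, more than the threshold for a call is meant to allow. In the real data 16% of genes tested were called, so the simulated shares may not hold there.

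The members and lists were chosen with earlier results of these data known. Array values were to be given for every called member, for tested members of paralog groups, for the 6 called further pathway genes with the largest change, and for CBL and CBLB. SEC22B and the dim probe sets of TMED10 and SEC24D were added after their values were seen. Motifs were counted in RefSeq promoter sequences, matched by symbol for 40 of 45 members. SEC24D, ERGIC1, KDELR2, TMED9 and USO1 were not searched. The number of arrays limits the precision. Alternatives were other constants, normalizations, probe set choices, brightness filters, an intensity trend, the sample number as a block, and leaving out each array.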

Additional observations from a re-analysis of the deposited data

How the results depend on the processing

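No called member changed direction under any alternative, and 3 of the 14, LMAN1, BET1 and ERGIC1, kept their call in all. This covers only settings in which a gene was tested. ERGIC3 was not tested with single-transcript probe sets alone, and ARF1 was not tested with the stricter brightness filter, an intensity of 63.9. With log2(intensity + 1), 6 members were called higher and 2 lower at a median of 0.21, and SEC23B, SEC24A, ERGIC3, SURF4, KDELR3 and YKT6 lost their calls. With log2(intensity + 64), SEC24A, KDELR3 and ARF1 lost theirs. Without a brightness filter 6 were called higher, without SEC23B, SEC24A, SEC24D, KDELR3 and ARF1. Quantile normalization took the calls of SEC24A and KDELR3, and cyclic loess that of ERGIC3. When the probe sets of each gene were averaged, 16 were higher and 2 lower, and ERGIC3 (-0.04, adjusted p = 0.687, with its 2 probe sets below the brightness minimum) and ERGIC2 (-0.24, 0.0711) lost their calls. That setting also gave SEC22B a log2 change of 0.34, and probe sets that match only single transcripts gave it 0.70 and YIF1B 0.24, each opposite in sign to the brightest probe set. The members' median was 0.20 with quantile normalization, 0.215 with cyclic loess and 0.27 with single-transcript probe sets alone. Of the further pathway genes, 1 was called lower in that last setting and 1 with log2(intensity + 1).

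Leaving out each array gave 2 to 8 members higher, 1 to 3 lower and a median from 0.138 to 0.213, with 378 to 1120 of all genes higher and 158 to 875 lower, and 3 to 7 further pathway genes higher and 0 to 2 lower. Leaving out a double knockdown array leaves the spread to the control arrays. The cause of these shifts was not tested. The sample numbers pair the arrays only by number: deviations of same-numbered arrays correlated at 0.244. With the replicate block, 11 members were higher and 4 lower, with 1423 and 1081 over all genes and 9 and 4 further pathway genes. KDELR3 lost its call there (adjusted p = 0.0531), and SEC24B and MCFD2 gained it. SEC24B passed in 7 other settings, and TFG, TMED2, SEC23A, MCFD2 and ARCN1 each in at least 1. With 2 arrays per group, small changes can be missed.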
